A study of Mus musculus with 10 samples.

Results

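The genes described here are the NF-kB subunits, the kinases and adaptors that switch them on and the inhibitors that switch them off, followed through the transcriptomes of Ly6G+ cells from the heart and the blood of mice after myocardial infarction (MI). They are 39 named genes out of 28185 in the deposited table, chosen by name and function, with earlier results of these data known. All 39 were found and all 39 passed the filter on low values. They comprise 5 subunits, 8 kinases and adaptors, 7 ubiquitin ligases, TRAF proteins and members of the linear ubiquitin chain complex (LUBAC), 4 constitutive inhibitors and deubiquitinases, 11 inducible feedback genes and 4 other inducible targets.

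Every mouse was a male C57Bl/6J animal, 12 to 16 weeks old, with the left coronary artery ligated, and cells were collected at day 3 with magnetic beads against Ly6G, a surface protein of mouse neutrophils. The MI (n = 3) and MI + MSC (n = 3) libraries came from the infarcted left ventricle, and the Blood (n = 2) and Blood + MSC (n = 2) libraries from blood. The MSC groups had received syngeneic bone marrow mesenchymal stromal cells (MSC) under the skin, 1000000 cells at each of 3 sites, and the other groups had infarction without MSC. No group without infarction was used here. The batch tag in the labels repeats the group, so that any difference in handling between the groups cannot be told apart from the group. The labels do not tie each library to its own mouse, so p-values measure the spread between libraries.

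NF-kB is a family of dimeric transcription factors that wait in the cytoplasm of resting cells, bound to inhibitor of kappa B (I-kappa-B) proteins. Receptors for cytokines and microbial products recruit TRAF proteins and ubiquitin ligases, whose ubiquitin chains gather the kinases TAK1 and the I-kappa-B kinase (IKK) complex, and IKK marks the inhibitors for destruction. The freed dimers enter the nucleus and switch on inflammatory genes, among them the genes of their own inhibitors, so that transcripts of the feedback genes are induced when the pathway is active. Several subunit genes, such as Nfkb1, Nfkb2, Rel and Relb, are known targets too, while IKK and its partners are switched on at the protein level. In neutrophils the pathway is known for prolonging survival and for driving cytokine and chemokine production at inflamed sites.

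Short DNA sequences called kappa B sites bind these dimers, and the promoters of the feedback genes are classical places to find them. The promoter table of RefSeq (build GRCm38.p6, 300 bases around each start site, mostly upstream) held 31 of the 39 genes. The 10-base kappa B consensus, searched on both strands, was present in 13 of the 31 (41.9%), against 1388 of 27025 genes of the table (5.14%). It was found in 8 of 13 inducible genes with an entry (61.5%), in 3 of 8 subunits and kinases (37.5%) and in 2 of 10 of the remaining genes (20%). A gene with several start sites had several windows, a gene counted once however many matches it held, and a match is a run of letters and not a bound site. Of the genes with a match, 4 promoters are shown, those of the inhibitor genes Nfkbia, Tnfaip3 and Nfkbid as examples of the feedback inhibitors, and that of Rel because it is an activating subunit. Capitals mark the consensus, and each sequence is in the direction of transcription.
Nfkbia promoter, chr12:55492598-55492897, minus strand: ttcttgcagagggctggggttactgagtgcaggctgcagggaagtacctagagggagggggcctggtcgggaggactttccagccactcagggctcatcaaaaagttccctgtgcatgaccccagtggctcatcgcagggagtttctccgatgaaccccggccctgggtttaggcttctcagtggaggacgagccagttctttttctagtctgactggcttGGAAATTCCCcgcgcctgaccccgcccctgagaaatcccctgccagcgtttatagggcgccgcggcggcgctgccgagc
Tnfaip3 promoter, chr10:19015361-19015660, minus strand: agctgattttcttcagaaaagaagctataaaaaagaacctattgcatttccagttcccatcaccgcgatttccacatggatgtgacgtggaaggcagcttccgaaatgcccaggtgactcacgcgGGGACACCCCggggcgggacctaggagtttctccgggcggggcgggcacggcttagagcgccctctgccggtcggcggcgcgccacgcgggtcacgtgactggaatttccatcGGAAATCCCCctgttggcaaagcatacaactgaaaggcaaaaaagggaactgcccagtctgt
Nfkbid promoter, chr7:30422156-30422455, plus strand: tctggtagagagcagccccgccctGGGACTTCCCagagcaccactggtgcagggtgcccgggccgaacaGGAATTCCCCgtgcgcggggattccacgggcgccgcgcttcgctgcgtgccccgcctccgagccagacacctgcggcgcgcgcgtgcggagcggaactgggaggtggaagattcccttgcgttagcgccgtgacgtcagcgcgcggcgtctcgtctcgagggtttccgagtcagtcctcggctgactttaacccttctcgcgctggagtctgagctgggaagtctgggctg
Rel promoter, chr11:23770920-23771219, minus strand: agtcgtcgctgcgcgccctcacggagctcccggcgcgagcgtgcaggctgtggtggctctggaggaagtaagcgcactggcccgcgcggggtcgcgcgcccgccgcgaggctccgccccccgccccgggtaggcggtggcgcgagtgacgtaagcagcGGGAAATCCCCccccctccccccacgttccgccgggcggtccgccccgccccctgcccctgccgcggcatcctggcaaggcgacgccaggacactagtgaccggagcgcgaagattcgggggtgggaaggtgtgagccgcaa
The match of Nfkbia began at position -29 from the start site, those of Tnfaip3 at -125 and -12, those of Nfkbid at -226 and -181, and the 2 overlapping matches of Rel at -92 and -91. Tnfaip3 and Nfkbid have more than 1 start site in the table, and the one with matches is shown. The windows of Icam1, Traf1, Gadd45b, Birc3 and Zc3h12a held none of these letters.

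The values are normalized counts, that is, read counts divided by a size factor of the library. The libraries held 148594 to 2653258 reads in MI, 665946 to 2229855 in MI + MSC, 268860 to 2957308 in Blood and 6339922 to 8602711 in Blood + MSC. One read was worth 8.40 normalized counts in MI 13 and 7.07 in Blood 21, the shallowest libraries, so that Rela rested on 6 reads and Traf6 on 3 reads in MI 13. Blood 21 also stood apart by a summed level of platelet markers of 28050, against 608 to 1165 in the other blood libraries. Ly6g itself was low in the cardiac libraries, at 16.8 to 26.9 normalized counts in MI and 4.75 to 13.8 with MSC. In blood it was 198 and 645 without MSC, 57 and 41.2 with MSC. The summed level of 12 neutrophil markers was 2547 to 8091 in MI, 2819 to 13564 in MI + MSC, 44788 to 53435 in Blood and 16764 to 23725 in Blood + MSC, while that of 12 monocyte and macrophage markers was 3614 to 10087, 8114 to 16153, 8401 to 11269 and 7160 to 9129. All 4 groups thus held transcripts of both lineages, and in such bulk samples a smaller number of cells of a type cannot be told apart from less RNA per cell.

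Between genes, levels were compared per kilobase of the canonical transcript. On that scale Nfkbia, which encodes the I-kappa-B alpha inhibitor, was the highest member at a mean of 1021 over the 10 libraries, followed by the inducible apoptosis regulator Ier3 at 832 and the stress gene Gadd45b at 409. The highest subunits, Rela and Nfkb1, reached 45.6 and 44.4, the kinase Map3k8 70.7 and the adaptor Tab2 57.6. Tnip3, a partner of the Tnfaip3 product, had the lowest mean over the 10 libraries at 8.52, though not in every group. In Blood and in Blood + MSC Nfkbiz stood above Gadd45b, at 194 and 109 and at 141 and 134. In MI Ier3 stood above Nfkbia, at 767 and 681 per kilobase, and in MI + MSC below it, at 1645 and 2084.

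The inducible genes also varied most. Their range from lowest to highest library, on the log2(normalized count + 2) scale, had a median of 3.24, against 1.51 in the subunits and kinases and 1.59 in the remaining members. Tnfaip3, the ubiquitin-editing feedback enzyme, spanned 6.15 and the adhesion molecule Icam1 4.57, while the ranges of Traf1, an inducible TRAF protein, and Cd83, a surface protein of activated leukocytes, reach down to 0 reads and 1 read in Blood 21 and are not given. Tab2 spanned 0.62, Ikbkb, the catalytic IKK subunit, 0.73 and Traf2 0.75. The highest library was MI + MSC 15 or MI + MSC 17 for 12 of the 15 inducible genes and for 13.2% of all tested genes. Of the 13 subunits and kinases, 4 were highest in Blood + MSC 23 and 3 each in Blood 22 and MI + MSC 15.

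**Figure D1:**
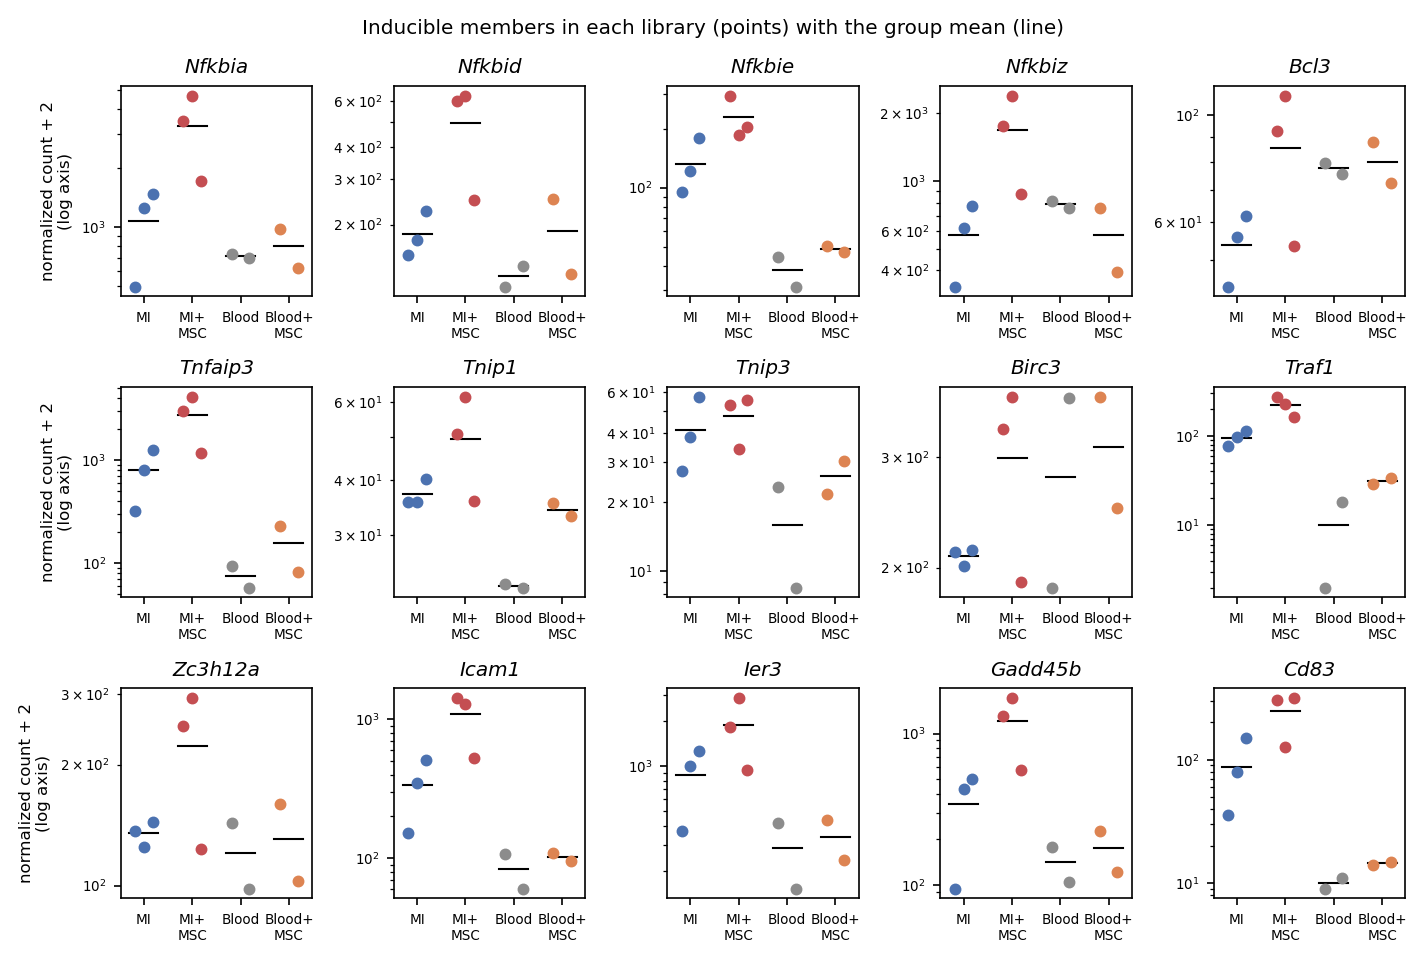
Normalized count + 2 (log axis) of the 15 inducible members in the 10 libraries, by group, with points for libraries and lines for group means. In most panels 2 of the 3 MI + MSC points lie above all MI points and the other one lies near the highest of them, as for Nfkbia, where MI + MSC 18 was at 1714 and MI 20 at 1468.

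The first comparison asked how the pathway differed between cardiac Ly6G+ cells of mice with and without MSC. The inducible genes were at higher levels in the MI + MSC libraries, with a median log2 fold change of 1.20 over the 15 genes, while the subunits and kinases lay at 0.30 and the remaining members at -0.02. No member passed the test (limma, 0 of 39 called, lowest Benjamini-Hochberg adjusted p = 0.517), as 0% of the 11549 tested genes were called higher and 0% lower. An unadjusted p under 0.05 was reached by 8 members, all inducible and all higher, against 3.26% of the tested genes that were higher and 4.74% that were lower at that p. edgeR also called 0 members, and DESeq2 called 3 higher, Nfkbia, Nfkbiz and Icam1, where it called 0.182% of the genes higher and 0.476% lower. With all libraries included, all 15 inducible genes had a log2 fold change above 0, against 48.9% of all tested genes. The MI + MSC libraries did not overlap the MI libraries, and lay above them, for 9 members, where the background was 7.05% of the tested genes, and lay below them for 1 member, where it was 9.6%. Under library size scaling these counts were 6 and 1 (4.43% and 12.2% of the tested genes), and under TMM scaling 7 and 0 (5.57% and 4.46%).

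Of the 5 inducible I-kappa-B genes, 4 lay above MI without overlap, where 7.05% of all tested genes did. Under library size scaling and under TMM scaling 3 did, Nfkbia, Nfkbid and Nfkbiz. Nfkbia (GRCm39 chr12:55535332-55539432, minus strand) was at 496, 1259 and 1468 normalized counts in the MI libraries and at 3462, 4691 and 1714 in the MI + MSC libraries. The lowest treated library stood just above the highest untreated one, and the log2 fold change was 1.64 (SE 0.50, adjusted p = 0.530). Nfkbiz, a nuclear I-kappa-B that helps to switch on secondary response genes, was at 336, 617 and 772 in MI, compared with 1763, 2397 and 873 in MI + MSC. Its groups did not overlap either, with a log2 fold change of 1.5 (SE 0.45, adjusted p = 0.530). Nfkbid, another nuclear I-kappa-B, was at 151, 172 and 224 in MI, compared with 599, 629 and 248 in MI + MSC. Again MI + MSC 18 lay close to MI 20, and the log2 fold change was 1.32 (SE 0.39). Nfkbie, which encodes the cytoplasmic inhibitor I-kappa-B epsilon, was at 92.4, 119 and 176 in MI, compared with 293, 184 and 203 in MI + MSC. Bcl3, an atypical I-kappa-B that acts with the Nfkb1 and Nfkb2 products, overlapped between groups, at 42.0 to 59.7 and 51.5 to 108.

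Among the other feedback genes, Tnfaip3 (GRCm39 chr10:18874201-18891405, minus strand) was at 319, 798 and 1257 in MI, compared with 2962, 4117 and 1177 in MI + MSC. Here MI + MSC 18 fell inside the range of the MI libraries, so the groups overlapped at a log2 fold change of 1.82 (SE 0.59, adjusted p = 0.530). Traf1 did not overlap, at 75.6, 95.2 and 111 in MI, compared with 274, 227 and 161 in MI + MSC. Birc3, an inducible ubiquitin ligase, was at 199 to 212 in MI, compared with 331, 372 and 188 in MI + MSC, and Zc3h12a, a ribonuclease that degrades inflammatory messenger RNAs, was at 123 to 142 and at 247, 292 and 121. Both showed 2 high treated libraries and 1 that lay below every MI library. Tnip1 and Tnip3, which encode partners of the Tnfaip3 product, overlapped, with log2 fold changes of 0.38 (SE 0.30) and 0.24 (SE 0.44). Tnip3 was at 25.2, from 3 reads, in MI 13, at 36.5 and 55.6 in MI 19 and MI 20, and at 50.7, 32.1 and 53.6 in MI + MSC. Its place above 0 therefore depends on MI 13.

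The other inducible targets followed the same libraries except Cd83. The adhesion molecule Icam1 was at 151, 348 and 506 in MI, compared with 1430, 1295 and 523 in MI + MSC, a log2 fold change of 1.72 (SE 0.48, adjusted p = 0.517). Gadd45b was at 92.4, 426 and 503 in MI, compared with 1300, 1727 and 574 in MI + MSC, a log2 fold change of 2.0 (SE 0.61, adjusted p = 0.530). Neither gene overlapped. Ier3 overlapped, at 370 to 1250 and 940 to 2863. Cd83 was at 33.6, 77.9 and 147 in MI, compared with 299, 124 and 316 in MI + MSC, so that here MI + MSC 17 and not MI + MSC 18 was the low one.

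The libraries within each cardiac group were therefore far apart. Of the 15 inducible genes, 13 had MI + MSC 15 and MI + MSC 17 both above every MI library, where 17.6% of all tested genes did, and 8 had MI + MSC 18 above every MI library, where 23.1% did, while 12 were lowest in MI + MSC 18 within its group, where 32.4% were. MI 20 was the highest MI library for 15 of the 15 and MI 13 the lowest for 13, against 32.4% and 47.2% of all tested genes. The depth had the same order, with 148594 reads in MI 13, 1433926 in MI 19 and 2653258 in MI 20, but not in MI + MSC, where the 3 libraries held 2229855, 665946 and 1979944 reads. The neutrophil marker sum was 2547, 8091 and 5996 in MI 13, 19 and 20, and 8215, 13564 and 2819 in MI + MSC 15, 17 and 18, so it was lowest in MI 13 and in MI + MSC 18. Of the monocyte and macrophage markers 9 of 12 were above 0 in log2 fold change, of the endothelial markers 0 of 9 and of the cardiomyocyte markers 0 of 10, with sums of 491 to 949 against 2032 to 2169 and of 3267 to 12966 against 8334 to 24985. The part of these lists in the result was not tested. Without MI 13 the median of the inducible genes was 1.06 and that of the subunits and kinases 0.17.

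The subunits differed less. Rel, the c-Rel subunit of lymphoid and myeloid cells, was at 75.6, 172 and 251 in MI, compared with 308, 243 and 230 in MI + MSC, with a log2 fold change of 0.79 (SE 0.38), which was 0.31 without MI 13. Relb and Nfkb2, the pair of the noncanonical pathway, had log2 fold changes of 0.56 (SE 0.27) and 0.46 (SE 0.27), and Nfkb2 did not overlap, at 110 to 126 and 129 to 206. Rela, the main activating subunit, was at 50.4 to 119 and 102 to 133, and Nfkb1 at 165 to 210 and 133 to 202. Neither separated the groups.

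Of the 8 kinases and adaptors, Ripk1 alone did not overlap between the groups. Ikbkb was at 99.0 to 135 in MI and 98.0 to 119 in MI + MSC, Map3k7, which encodes TAK1, at 75.6 to 130 and 107 to 125, and Tab2, its ubiquitin-binding adaptor, at 210 to 259 and 231 to 289. The largest value was that of Map3k8, a kinase that links NF-kB signalling to ERK, at 0.89 (SE 0.42), and it was 0.38 without MI 13. Ripk1, the receptor-interacting kinase, lay at 67.2, 166 and 194 in MI, compared with 219, 202 and 197 in MI + MSC, a log2 fold change of 0.66 (SE 0.36) that was 0.19 without MI 13. The other IKK subunits, the catalytic Chuk and the scaffold Ikbkg, had log2 fold changes of 0.27 (SE 0.30) and 0.30 (SE 0.28), or 0.06 and 0.17 without MI 13, and Ripk2, the kinase of the NOD receptors, 0.04 (SE 0.32). Of the ubiquitin machinery, the LUBAC catalytic subunit Rnf31 was the one member below MI in every treated library, at 63.3 to 67.3 and 50.5 to 56.8, a log2 fold change of -0.27 (SE 0.24). Its read counts may include reads of Irf9, which shares 282 exonic bases on the same strand. Sharpin and Rbck1, the other LUBAC subunits, were at -0.04 and 0.09, and the deubiquitinases Cyld and Otulin at -0.02 and -0.04. The adaptors Traf2 and Traf3 were at -0.04 and -0.19, the ubiquitin ligases Traf6 and Birc2 at 0.53 and 0.45 (-0.13 and 0.14 without MI 13), and the constitutive inhibitors Nfkbib and Tnip2 at 0.58 and 0.11. These members overlapped between the groups.

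**Figure D2:**
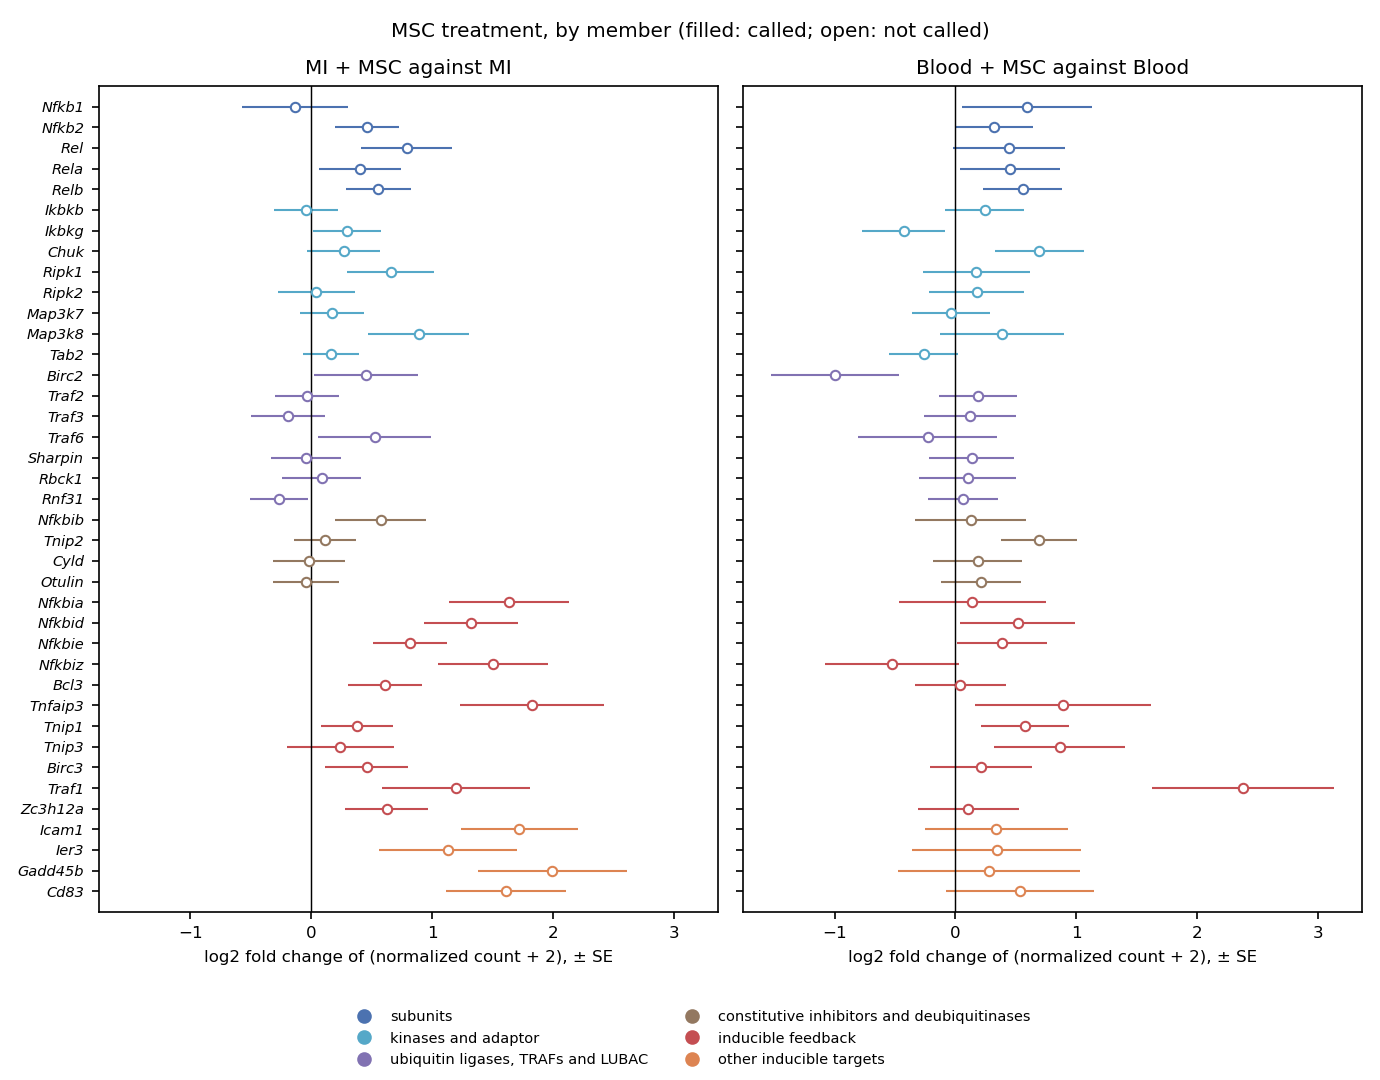
Log2 fold change of (normalized count + 2) with its SE for each of the 39 members, MI + MSC against MI (left) and Blood + MSC against Blood (right), coloured by class, with open symbols for members not called. All 15 inducible genes lie above 0 in the heart, and limma called no member in either panel.

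In blood, MSC treatment was compared over 2 libraries against 2. The median log2 fold change was 0.34 in the inducible genes, 0.32 in the subunits and kinases and 0.13 in the remaining members, while the median over all tested genes was 0.11. The first pair of medians was 0.59 and 0.20 without Blood 21, and 0.13 and 0.38 without Blood 22. Cell type markers differed between these groups too, with 1 of 12 neutrophil markers and 0 of 8 platelet markers above 0, at medians of -1.64 and -3.81, and their part in the result was not tested. No member was called by limma (lowest adjusted p = 0.672), where 0% of all tested genes were called higher and 0% lower. An unadjusted p under 0.05 was reached by 1 member, against 4.35% of the tested genes that were higher and 3% that were lower. edgeR called 0 members and 0% of the genes, and DESeq2 called 0 members, 0.0346% of the genes higher and 1.52% lower. The groups did not overlap for 9 members higher and 3 lower, against 21% and 15.4% of all tested genes. This split depended on the scaling, since 25 members were higher and 0 lower under library size scaling, where 40.3% and 6.36% of all tested genes were, and 31 higher and 0 lower under TMM scaling, where 56.5% and 2.92% were.

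Nfkbia was at 728 and 692 in the Blood libraries, and with MSC at 982 and 621. Tnfaip3 was at 91.8 and 55.9 without MSC, and at 227 and 79.6 with it. Icam1 was at 106 and 58.5, and with MSC at 107 and 94.2. These 3 overlapped, and Blood + MSC 23 was above Blood + MSC 24 for 12 of the 15 inducible genes and for 48.9% of all tested genes. Traf1 had the largest value at 2.38 (SE 0.75, adjusted p = 0.672), from 0 reads in Blood 21, which allows up to 21.2 normalized counts, 16.2 in Blood 22 and 27.3 and 31.6 in Blood + MSC. Without Blood 21 it was 0.78. The 3 members that lay lower, in the main scaling only, were Nfkbiz, at 813 and 755 against 753 and 392, the IKK scaffold Ikbkg, at 212 and 142 against 126 and 131, and Tab2, at 311 and 324 against 288 and 242. Nfkb1 was at 84.8 and 382 in Blood, on either side of 274 and 273 in Blood + MSC, and its log2 fold change was 0.59 with both libraries, -0.48 without Blood 21 and 1.67 without Blood 22.

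The difference between the MSC effects in heart and blood was tested as an interaction. It was called for 0 members by limma, edgeR and DESeq2, against 0% of all tested genes in each direction by limma, where DESeq2 called 0.13% of the genes higher and 0.026% lower. An unadjusted p under 0.05 was reached by 1 member, against 2.36% of the genes that were higher and 4.9% that were lower. It was Nfkbiz, with an interaction of 2.03 (SE 0.71, adjusted p = 0.630), which was 1.60 under library size scaling and 1.64 under TMM scaling. The values of Gadd45b, Nfkbia and Icam1 were 1.72 (SE 0.97), 1.5 (SE 0.79) and 1.38 (SE 0.76), and those of Birc2 and Traf1 1.45 (SE 0.68) and -1.18 (SE 0.97). The last pair rests on Blood 21, where Traf1 had 0 reads and Birc2 was at 502 normalized counts, against 147 in Blood 22. Without Blood 21 the interaction of Traf1 turned positive and that of Birc2 was smaller.

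The next pair of comparisons asked how cells in the infarcted heart differed from those in blood, without and with MSC. Members passed the test in both directions. In MI against Blood, limma called 6 members higher, which were Nfkbie, Tnfaip3, Tnip3, Traf1, Icam1 and Cd83, and 4 lower, which were Ikbkg, Birc2, Sharpin and Rnf31, where 21.2% of all tested genes were called higher and 13.5% lower, so that the members' shares were below the background. In MI + MSC against Blood + MSC it called 8 higher, Nfkbia, Nfkbie, Tnfaip3, Traf1, Icam1, Ier3, Gadd45b and Cd83, and 2 lower, Sharpin and Rnf31, against 8.23% and 5.85%. The groups did not overlap for 10 members higher and 10 lower in the first comparison (31.6% and 23.6% of the tested genes) and for 14 higher and 11 lower in the second (33.8% and 29.7%). Under library size scaling the first comparison had 18 and 2 members without overlap (45.3% and 12.7% of the tested genes) and the second 14 and 10 (35% and 26.7%). Under TMM scaling the first had 4 and 4 (22.7% and 20.6%) and the second 8 and 20 (15.9% and 49.9%). All called higher were inducible and none of the called lower were, and of the 13 subunits and kinases 1 was called lower in the first comparison and 0 in the second. The split of higher and lower calls depended on the scaling, with 10 and 1 under library size scaling (32.7% and 7.03% of the tested genes) and 3 and 1 under TMM scaling (13.9% and 7.73%) in the first comparison. In the second it was 10 and 2 under library size scaling (9.01% and 5.41%) and 3 and 2 under TMM scaling (4.36% and 7.09%).

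Tnfaip3, whose levels in every library are given above, was higher in each cardiac library than in each blood library. Its log2 fold change was 3.22 (SE 0.66, adjusted p = 0.00466) without MSC and 4.15 (SE 0.66, adjusted p = 0.00272) with MSC. Over all libraries Traf1 had the largest value without MSC, at 3.97 (SE 0.69, adjusted p = 0.00191). This rank depends on Blood 21, where Traf1 had 0 reads, and the value was 2.38 without Blood 21 and 5.57 without Blood 22. With MSC, Traf1 was at 2.79 (SE 0.69, adjusted p = 0.0218). Cd83 was at 7.07 and 9.10 in Blood, from 1 and 14 reads, and at 12.1 and 13 in Blood + MSC, and it rose by 2.90 (SE 0.56, adjusted p = 0.0033) and 3.98 (SE 0.56, adjusted p = 0.00144). Icam1 rose by 1.90 (SE 0.54) and 3.28 (SE 0.54), and Nfkbie, at 29.2 to 48.6 over the 4 blood libraries, by 1.77 (SE 0.34) and 2.20 (SE 0.34). For Cd83, Tnfaip3 and Nfkbie the call was kept in 10 of 10 fits that left out 1 library in both comparisons, and that of Nfkbie was lost under TMM scaling in both. Icam1 lost its call in MI against Blood under TMM scaling, on the groups compared only and without MI 19, MI 20 or Blood 22. Traf1 lost its call with MSC under TMM scaling, with a pseudocount of 1 and without any 1 of the MI + MSC or Blood + MSC libraries.

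Nfkbia differed between the tissues with MSC, at 1.95 (SE 0.56, adjusted p = 0.0387), while without MSC it was at 0.45 (SE 0.56, adjusted p = 0.550), where MI 13 at 496 lay below both Blood libraries. Nfkbiz was at -0.53 (SE 0.51) without MSC and 1.5 (SE 0.51, adjusted p = 0.0681) with MSC. With MSC, edgeR, DESeq2 and limma-voom called Nfkbiz higher, where they called 16.4%, 17.8% and 20.8% of all tested genes higher. Whether these tissue differences themselves differ is the interaction given above, which did not pass. In the mice given MSC, Ier3 and Gadd45b were higher in the heart than in blood by 2.41 (SE 0.64, adjusted p = 0.0292) and 2.71 (SE 0.69, adjusted p = 0.0240). In the mice without MSC the values were 1.62 (SE 0.64, adjusted p = 0.0684) and 0.99 (SE 0.69, adjusted p = 0.277). There, in fits that kept every blood library, Ier3 was called higher under library size scaling, by DESeq2 and without MI 13. DESeq2 called it over all libraries and on the groups compared only, where it called 18.7% and 11.6% of all tested genes higher. Library size scaling called 32.7% higher. Gadd45b was called higher in MI against Blood without MI 13. Ier3 and Gadd45b both lost the call with MSC under TMM scaling and without MI + MSC 15, MI + MSC 17 or either Blood + MSC library. So did Nfkbia, which also lost it without MI 19. Bcl3 and Birc3, also feedback genes, were not called, at -0.54 (SE 0.34) and -0.33 (SE 0.38) without MSC and 0.03 (SE 0.34) and -0.09 (SE 0.38) with MSC. Bcl3, at 42.0 to 59.7 in MI, lay below both Blood libraries, at 77.7 and 73.4.

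Sharpin and Rnf31 were called lower in both comparisons, where 13.5% and 5.85% of all tested genes were. Rnf31 (GRCm39 chr14:55828443-55841309, plus strand) was at 67.2, 67.3 and 63.3 in MI, compared with 56.8, 50.5 and 56.3 in MI + MSC. In blood it was at 141 and 205 without MSC, 189 and 168 with MSC. It fell by 1.34 (SE 0.27, adjusted p = 0.00372) and by 1.67 (SE 0.27, adjusted p = 0.00257) on the log2 scale. Sharpin was at 43.9 to 52.8 over the 6 cardiac libraries and 84.8 to 174 over the 4 blood libraries, and fell by 1.30 (SE 0.32, adjusted p = 0.0111) and 1.48 (SE 0.32, adjusted p = 0.0126). Rbck1 was below blood in every cardiac library but was not called by limma, at -0.71 (SE 0.37, adjusted p = 0.152) and -0.73 (SE 0.37, adjusted p = 0.204). It was called lower with MSC by DESeq2 on the groups compared only, under quality weights and without MI 13 and Blood 21. That DESeq2 fit called 18.9% of all tested genes lower and the quality weights 21.2%. Sharpin lost its call in MI against Blood under library size and TMM scaling, on the groups compared only by limma and DESeq2 and without Blood 22, where it was -0.79, and with MSC without either Blood + MSC library, and Rnf31 with MSC without Blood + MSC 23. Of the single calls, Birc2, the constitutive relative of Birc3, was at 502 in Blood 21 and 147 in Blood 22, and its fall of 1.54 became -0.66, and was not called, without Blood 21, the library with the highest platelet marker sum. It also lost the call without MI 13, under library size and TMM scaling, on the groups compared only and under quality weights. Ikbkg was called at -0.92 (SE 0.31, adjusted p = 0.0413) and kept the call in 3 of 10 fits that left out 1 library and under 4 of 12 other settings. Tnip3, which rested on 3 to 108 reads in the MI and Blood libraries, kept its call in 3 of 10 and under 8 of 12.

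The subunits were not called by limma in either tissue comparison, although Relb was called higher under library size scaling without MSC, Rel and Relb higher and Rela lower under quality weights with MSC, Nfkb1 lower by DESeq2 on the groups compared only with MSC, and Rel higher and Nfkb1 and Rela lower with MSC without MI 13 and Blood 21. Library size scaling called 32.7% of all tested genes higher without MSC. With MSC, quality weights called 25.3% higher and 21.2% lower, and DESeq2 on the groups compared only 18.9% lower. Rel was at 0.31 (SE 0.42) without MSC and 0.66 (SE 0.42) with MSC, Relb at 0.55 (SE 0.30) in both, Rela at -0.53 (SE 0.38) and -0.57 (SE 0.38), Nfkb1 at 0.04 (SE 0.49) and -0.69 (SE 0.49) and Nfkb2 at -0.19 (SE 0.30) and -0.04 (SE 0.30). In MI against Blood, Rel was at 0.79 and Rela at -0.14 without MI 13, and Rel was at -0.06 without MI 20. The value of Nfkb1 without MSC rests on 2 unlike Blood libraries, and it was called lower at -1.03 without Blood 21 and higher at 1.11 without Blood 22. Of the kinases, Chuk was lowest with MSC at -0.87 (SE 0.34, adjusted p = 0.106), where edgeR, limma-voom, limma and DESeq2 on the groups compared only, quality weights and the fit without MI 13 and Blood 21 called it lower. All of these settings but the last called 15.6% to 21.2% of all tested genes lower. Map3k8 and Ripk1 were lowest among the uncalled kinases without MSC, at -0.81 (SE 0.47) and -0.81 (SE 0.40). Both values rest in part on MI 13, where these genes had 7 and 8 reads. Map3k8 was at 58.8, 158 and 194 in MI, against 226 and 205 in Blood. Ripk1 was at 67.2, 166 and 194 in MI, against 198 and 264 in Blood. Without MI 13 both falls were smaller.

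Over all 10 libraries, every cardiac library was above every blood library for 7 members, Nfkbib, Nfkbie, Tnfaip3, Tnip1, Traf1, Icam1 and Cd83, and below for 3, Sharpin, Rbck1 and Rnf31. The background was 19.1% and 14% of all tested genes, so the 7 (17.9% of the members) and the 3 (7.69%) were no larger a share. Of the 7, Tnip1 separated narrowly, at 33.6 in MI 13, from 4 reads, and 33.4 in Blood + MSC 23. One read of MI 13 was worth 8.40 normalized counts, more than the gap between them. Nfkbib, which encodes the constitutive inhibitor I-kappa-B beta, was at 31.4 to 37.5 in MI and 27.6 to 79.8 in MI + MSC, against 21.2 to 26.6 in blood. Its order was close too, at 27.6 in MI + MSC 17 and 26.6 in Blood 22. It had 4 reads in MI 13 and 3 in Blood 21. limma called Nfkbib in neither comparison, while edgeR, DESeq2, limma-voom and limma with quality weights called it higher in MI + MSC against Blood + MSC. There they called 16.4%, 17.8%, 20.8% and 25.3% of all tested genes higher. The neutrophil markers were lower in the heart, with 0 of 12 above 0 in both comparisons, and the endothelial and cardiomyocyte markers higher, with 8 of 9 and 10 of 10 above 0 without MSC. With MSC the counts were 9 of 9 and 10 of 10, and of the 10 cardiomyocyte markers 8 were at 0 reads in Blood 21. Of the monocyte and macrophage markers 4 of 12 were above 0 without MSC and 10 of 12 with MSC, and of the fibroblast markers 7 of 8 and 6 of 8. Of the platelet markers 0 of 8 were above 0 without MSC and 2 of 8 with MSC, at medians of -4.45 and -0.86. Of the lymphocyte markers 0 of 4 were above 0 in both comparisons. Reads were also counted on 902 genes of olfactory and vomeronasal receptors, which are genes of the nose. They numbered 811 to 11057 for each 1000000 reads in the cardiac libraries, the highest being MI 13, and 138 to 277 in blood. The part of these lists and of these receptor reads in the tissue differences was not tested.

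**Figure D3:**
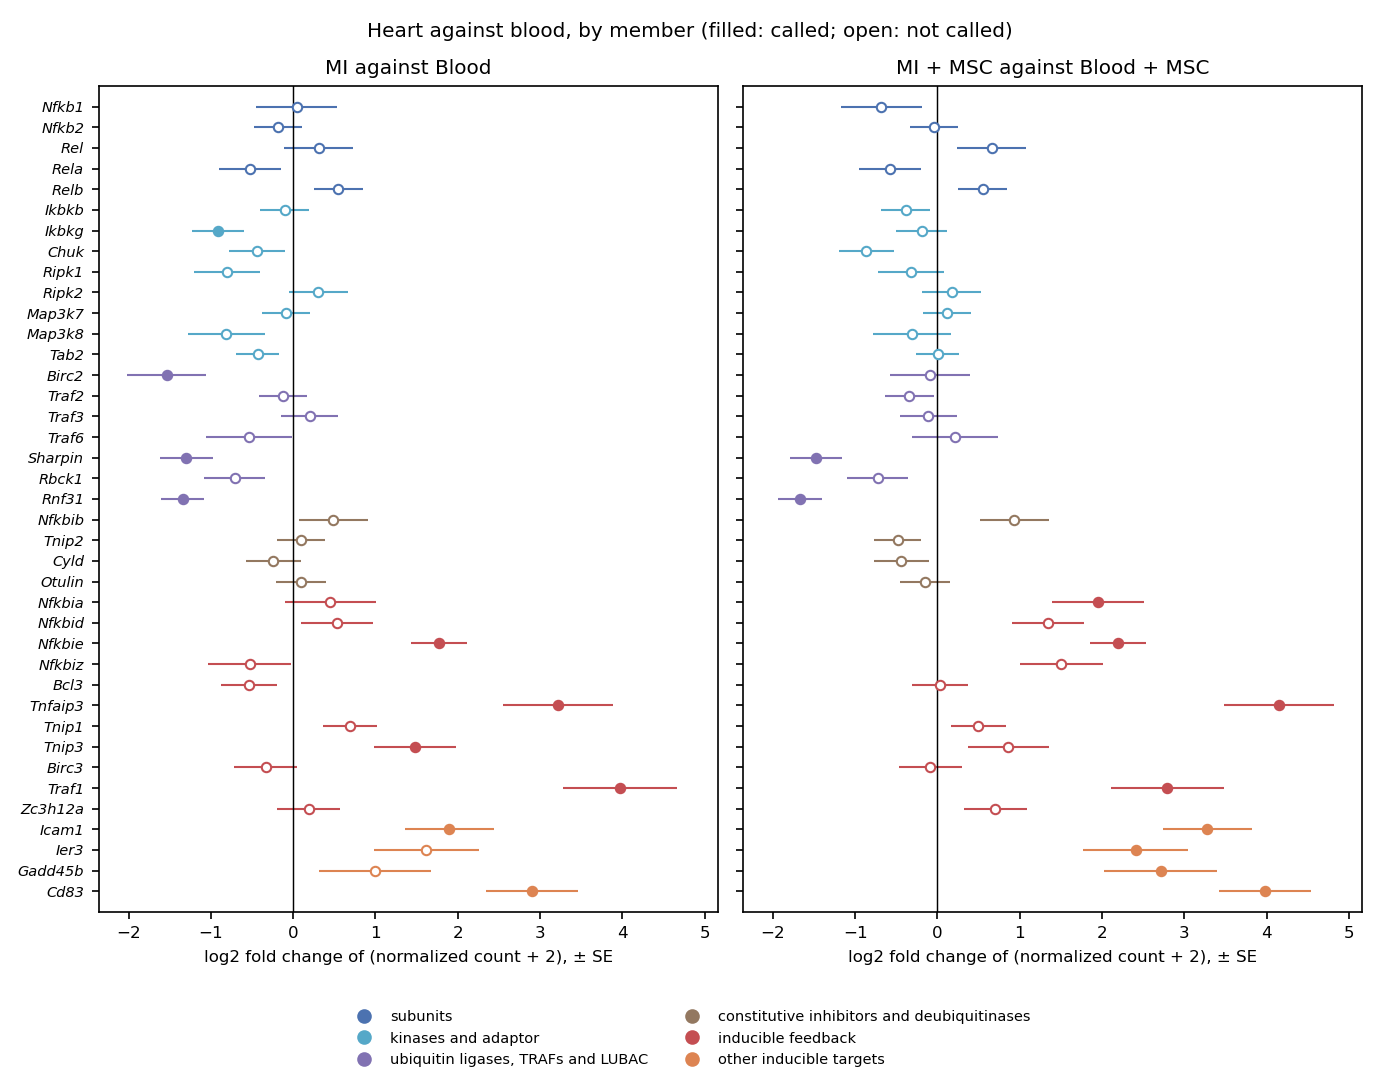
Log2 fold change of (normalized count + 2) with its SE for the 39 members, MI against Blood (left) and MI + MSC against Blood + MSC (right), coloured by class, with filled symbols for called members. The filled symbols to the right are inducible genes, 6 and 8 of them, and those to the left include Sharpin and Rnf31 in both panels.

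Differences between genes in the same library depend on the size factor only through the pseudocount, so the balance between inducible genes and signalling core was also taken within each library. The median log2 level of the 15 inducible genes minus that of the 13 subunits and kinases was 0.81, 0.59 and 0.82 in MI 13, 19 and 20, and 1.17, 1.52 and 0.98 in MI + MSC 15, 17 and 18. The treated libraries lay above the untreated ones without overlap, with means of 0.74 ± 0.13 (SD, n = 3) and 1.22 ± 0.27 (SD, n = 3). In blood the values were 0.00 and -0.93 without MSC and -0.20 and -0.63 with MSC, means of -0.46 ± 0.66 (SD, n = 2) and -0.42 ± 0.31 (SD, n = 2). Every cardiac library was above every blood library. The medians are not per length, so 0 marks no balance point. MI 13, the lowest MI library for 13 of the 15 inducible genes, was not the lowest here. Since the members were chosen with these data known, no test was made of this score.

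**Figure D4:**
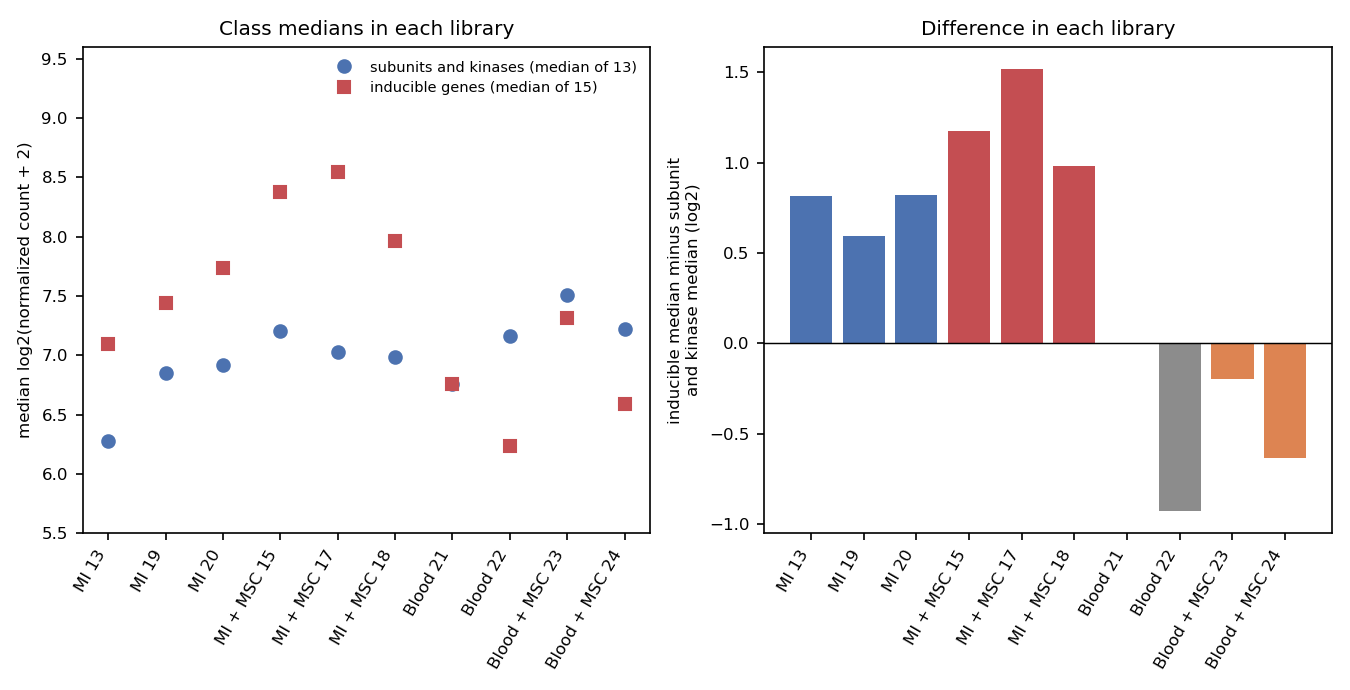
Median log2(normalized count + 2) of the 13 subunits and kinases (circles) and the 15 inducible genes (squares) in each library (left), and the difference of the medians as bars from 0 (right), which is not per length. The bars are 0.59 to 0.82 in MI, 0.98 to 1.52 in MI + MSC and -0.93 to 0.00 in the 4 blood libraries.

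Pairs of related genes were compared by their reads within each library, not scaled for length, so that only the order of the libraries is read from a ratio. Tnfaip3, an inducible deubiquitinase, had 2.11, 4.46 and 8.60 reads for each read of Cyld, a constitutive one, in the MI libraries, and 16.8, 26.4 and 8.51 with MSC. In blood this ratio was 0.72 and 0.20 without MSC, 0.93 and 0.43 with MSC. Traf1 had 1.5, 2.11 and 2.53 reads for each of Traf2 in the MI libraries, and 5.47, 6.19 and 3.2 with MSC. In blood it had 0 and 0.36 without MSC, 0.43 and 0.60 with MSC. Between subunits, Rel had 1.5, 1.56 and 2.11 reads for each of Rela without MSC and 2.68, 1.83 and 2.25 with MSC in the heart. In blood the values were 1.07 and 0.83 without MSC, 0.90 and 0.98 with MSC. These 3 ratios were higher in each cardiac library than in each blood library, and those of Traf1 to Traf2 did not overlap between MI and MI + MSC. Of the 9 pairs compared, 2 more showed that order. Relb to Rela was at 0.55 to 1.67 in the heart and 0.34 to 0.43 in blood, and Tnip3 to Tnip2 at 0.49 to 0.80 and 0.10 to 0.38. The separation of Tnip3 to Tnip2 rests on few reads, 3 and 6 in MI 13 and 3 and 8 in Blood 21. Nfkb1 to Rela, at 1 to 4.17 and 0.80 to 2.52, and Nfkb2 to Rela, at 0.92 to 2.5 and 0.88 to 1.20, overlapped. The 1.67, 4.17 and 2.5 came from MI 13, which had 6 reads of Rela. For Nfkbia to Nfkbib, given below, the 14.8 used 4 reads of Nfkbib in MI 13 and the 170.2 used 12 in MI + MSC 17. Birc3 to Birc2 overlapped too, at 1.74 to 3.57 in MI, 1.79 to 2.62 in MI + MSC and 2.21 to 2.53 in the blood libraries other than Blood 21, which was at 0.37, as did Nfkbia to Nfkbib, at 14.8 to 46.8 in MI, 27.5 to 170.2 in MI + MSC and 23.7 to 37.8 in blood.

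**Figure D5:**
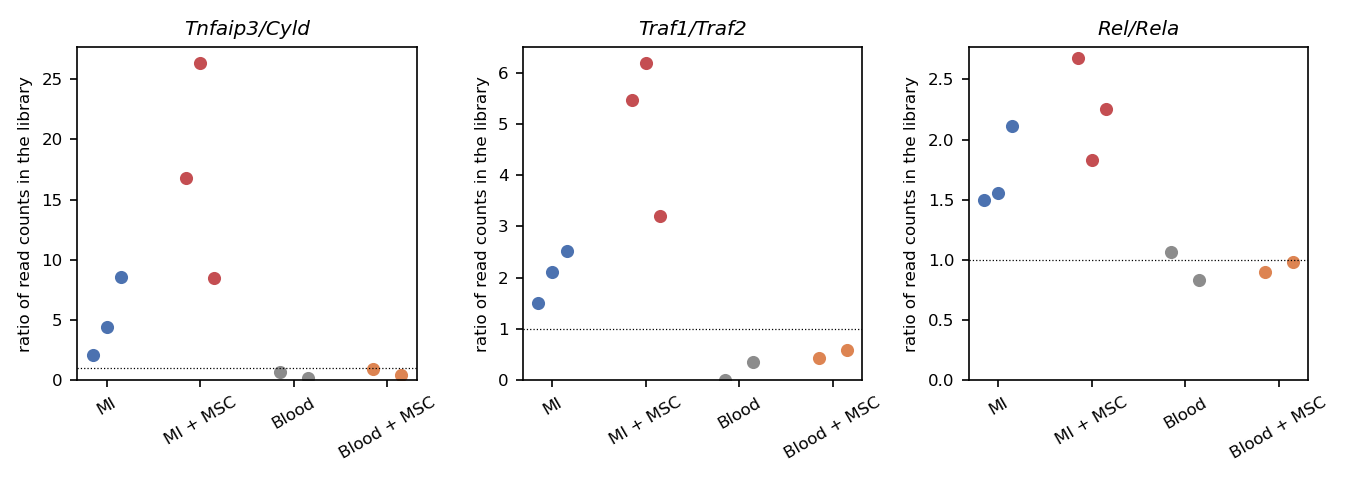
Ratio of recovered read counts within each library for Tnfaip3 to Cyld, Traf1 to Traf2 and Rel to Rela, with points for libraries and a dotted line at equal counts. The reads are not scaled for length, so the line marks equal reads and not equal transcripts, and in each panel the cardiac points, from 1.5 upward, lie above the blood points, at 1.07 or lower.

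Other genes of the pathway and other known targets, from lists chosen with earlier results of these data known, were examined beside the members. The share of all tested genes called is 21.2% higher and 13.5% lower in MI against Blood, and 8.23% and 5.85% in MI + MSC against Blood + MSC. Of 21 receptor-proximal adaptors and kinases, limma called 0 in the MSC comparisons, and in MI against Blood the kinase Irak1 was called higher at 1.16 and Irak4, Map3k3, Card9, Bcl10 and Myd88 lower, at -2.06, -2.02, -1.82, -1.53 and -1.30. Myd88 is the adaptor of the Toll-like and IL-1 receptors and Irak4 the kinase it recruits. With MSC, Irak4 and Card9 were called lower, at -1.64 and -1.89. Of 16 tested genes of the ubiquitin machinery and brakes, limma called 0 in the MSC comparisons, Rnf11, Tax1bp1, Itch and Peli1 were called lower in MI against Blood, at -2.30, -1.18, -1.10 and -0.95, and in MI + MSC against Blood + MSC Sqstm1 was called higher at 1.56 and Itch lower at -1.46. Of these, the genes outside the rule for named genes were chosen after their values were seen. Of 18 tested targets, limma and edgeR called 0 in the MSC comparisons, while in MI + MSC against MI DESeq2 called Tnf, Il1a, Cxcl1 and the inflammasome gene Nlrp3 higher and limma-voom Il1a. Of the 18, 15 had a log2 fold change above 0 in MI + MSC against MI and the median was 1.32. Those with the largest values and no overlap were the cytokine Il1a at 2.92 (SE 0.57), the neutrophil-attracting chemokine Cxcl1 at 2.20 (SE 0.48), Tnf at 2.06 (SE 0.58) and the chemokine Cxcl2 at 1.82 (SE 0.66), all above 0.3 in adjusted p, the lowest being 0.340. In blood, 12 of the 18 targets were above 0 and the median was 0.22, or 0.92 without Blood 21 and -0.20 without Blood 22. There the adhesion molecule Vcam1 was at 2.19 (SE 0.59), Cxcl1 at 2.14 (SE 0.58) and Il1a at 1.72 (SE 0.70), none of them called by limma, edgeR or DESeq2. The adaptors and kinases reached 2.10 in this comparison and the ubiquitin machinery and brakes 2.18. In MI against Blood, 7 of the 18 targets were called higher and 1, Tnfaip2, lower at -1.67, with the largest values in Il1a at 3.97, Vcam1 at 3.95, Cxcl1 at 3.73 and the survival gene Bcl2l1 at 2.46. In MI + MSC against Blood + MSC, 9 of the 18 were called higher and 0 lower, with the largest values in Il1a at 5.17, Tnf at 4.40, Cxcl1 at 3.79 and the protease gene Plau at 2.96.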

How the data were processed

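RNA-seq was deposited for 10 libraries in 4 groups. According to the study's methods and the submitters' processing notes, the authors trimmed reads with Trimmomatic, removed duplicates with Picard, mapped with STAR to GRCm39, counted by strand with featureCounts and normalized with DESeq2. The signal in both deposited tables is the authors' read count after division by a size factor, and 281850 of 281850 values were equal between the tables. Steps of the low values gave whole reads for 100% of values (tolerance 0.01), and so the recovered reads, 148594 to 8602711 per library. Precision is limited by this depth, and a floor of 3 reads covers counting error only. Gene coordinates, overlaps and transcript lengths were read from GENCODE's annotation of GRCm39, and promoter sequences from RefSeq (GRCm38.p6).

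Members and lists were chosen with earlier results of these data known. The main test was limma-trend (limma 3.58.1) on log2(normalized count + 2), fitted to all 10 libraries by group for the 11549 genes whose mean reached 10. A call needed an adjusted p under 0.05 and a log2 difference of 0.5 or more in either direction, and for the interaction the adjusted p alone. Fold changes on this scale understate the change of low genes. All 39 members are named, and of the other lists up to 4 genes per comparison with the largest change and no overlap, of which 1 is not reported here. Alternatives were edgeR 4.0.16, DESeq2 1.42.0 and limma-voom on the recovered reads, other pseudocounts (1 and 5), filters (mean of 20, or none), scalings (library size, TMM), quality weights, fits of the compared groups alone and leaving out each library. R 4.3.3 and Python 3.11.15 were used. limma, edgeR and DESeq2 were tested on simulated data.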

Additional observations from a re-analysis of the deposited data

Results flagged for a closer look

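In the main scaling, Nfkbiz was the one member whose MI + MSC libraries all lay above the MI libraries while its Blood + MSC libraries all lay below the Blood libraries, with log2 fold changes of 1.5 (SE 0.45) and -0.53 (SE 0.55). The difference between these effects was 2.03 (SE 0.71) and did not pass limma's interaction test (adjusted p = 0.630). The separation in blood rests on 755 against 753 normalized counts, and under library size scaling and TMM scaling 0 members lay lower without overlap there. The Blood + MSC against Blood value was -0.23 and 0.14 in those scalings, and the difference between the effects 1.60 and 1.64. It ranged from 1.56 to 2.50 when 1 library was left out.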

How the results depend on the processing

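The groups held 2 or 3 libraries, of which MI 13 and Blood 21 had 148594 and 268860 reads. In MI + MSC against MI, where limma called 0 members, DESeq2 called 3 over all libraries (0.658% of the tested genes) and 7 on the groups compared only (1.3%), and limma with quality weights, which give unlike libraries less influence, called 12 (9.53%). Against 10 calls in MI against Blood, TMM scaling gave 4 (21.6% of the tested genes) and the groups compared only 5 (14.7%). Against 10 in MI + MSC against Blood + MSC, TMM scaling gave 5 (11.4%), DESeq2 on the groups compared only 16 (39.2%), quality weights 20 (46.6%) and the fit without MI 13 and Blood 21, chosen after seeing the data, 18 (41.8%). Leaving out 1 library gave 0 to 0 calls in MI + MSC against MI (0% of the tested genes), 0 to 3 in Blood + MSC against Blood (0% to 12.8%, with Nfkb1, Traf1 and Birc2 without Blood 22), 7 to 10 in MI against Blood (27.8% to 34.3%), 4 to 11 in MI + MSC against Blood + MSC (2.31% to 23.1%) and 0 to 3 in the interaction (0% to 9.25%). Without a blood library its group holds 1 library, which is then assumed to vary like the other groups.

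The members without overlap were 10, 12, 20 and 25 in the 4 comparisons in this order (16.7%, 36.4%, 55.2% and 63.5% of the tested genes). When 1 library was left out they were 11 to 21 (19.8% to 34.1%), 19 to 29 (55.2% to 86%), 20 to 30 (59% to 77%) and 26 to 29 (69.2% to 77.8%). In Blood + MSC against Blood they were 25 under library size scaling (46.7% of the tested genes), 31 under TMM scaling (59.5%) and 28 without the shallow libraries (72.6%), and in MI against Blood 8 under TMM scaling (43.3%) and 36 without the shallow libraries (91.7%). TMM scaling moved the median of all genes from 0.11 to 0.72 in Blood + MSC against Blood and from -0.01 to 0.25 in MI + MSC against MI, and the inducible genes in MI + MSC against MI lay 1.21 above that median in the main scaling, 1.21 under library size scaling and 1.22 under TMM. The inducible minus core median differed between MI + MSC and MI by 0.48, and by 0.34 to 0.60 when 1 library was left out, between Blood + MSC and Blood by 0.05 (-0.42 to 0.51), between MI and Blood by 1.21 (0.74 to 1.67, and 1.64 without the shallow libraries) and between MI + MSC and Blood + MSC by 1.64 (1.42 to 1.86). Nfkb1 in MI against Blood was 0.04, and was called lower at -1.03 without Blood 21 and at -1.12 without MI 13 and Blood 21, and higher at 1.11 without Blood 22. The cause of these shifts was not tested. No paired analysis was possible because the replicate numbers of the groups are library numbers that no 2 groups share. According to the study's methods, blood was drawn from the animals before their hearts were taken, so heart and blood libraries may come from the same mice. The fits treated all 10 libraries as independent.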
